A study of Mus musculus with 18 samples.

Results

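T-N1G cells treated with 1.0 µM MG132 were compared with T-N1G cells given vehicle. The 6 libraries, 3 in each group, were chosen by cell line and treatment from the 18 poly(A) RNA libraries of the series. All cells of the series are immortalised mouse embryonic fibroblasts of the genotype MafF-/-::MafG-/-::MafK-/-, so the vehicle cells lack the same 3 small Maf genes as the treated cells. T-N1G cells express a tethered Nrf1-MafG heterodimer, and treatment with inhibitor or vehicle lasted 12 h. No source used here gives the promoter that drives T-N1G or says whether the line is 1 clone. The 3 T-N1G libraries at 0.3 µM MG132 served to show the step between doses, and 3 mock libraries at 1.0 µM with 3 mock libraries under vehicle served to show where the response of T-N1G cells differed. Mock cells carry the same deletions without T-N1G.

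MG132 is a peptide aldehyde that blocks the proteolytic sites of the proteasome, the complex that degrades ubiquitin-tagged proteins. Nrf1, encoded by Nfe2l1, is a transcription factor made in the membrane of the endoplasmic reticulum, from which the p97 ATPase extracts it for destruction by the proteasome. When the proteasome is inhibited, Nrf1 is processed and reaches the nucleus, where it pairs with a small Maf protein on antioxidant response elements, among them those of proteasome subunit genes. Unfolded and ubiquitin-tagged proteins that accumulate meanwhile are known to engage heat shock, translation control and autophagy genes.

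Of 13258 genes tested, 4973 (37.5%) were higher and 5151 (38.9%) were lower at 1.0 µM than under vehicle, 76.4% in all, at an adjusted p under 0.05. By 2-fold or more, 18.7% were higher and 17.6% lower, and the median log2 change over all genes was -0.0057. Every adjusted p here comes from edgeR's quasi-likelihood test with Benjamini-Hochberg adjustment over these genes, and levels are CPM, fragment counts scaled to a common library total, after TMM scaling. Libraries held 18164382 to 19095524 fragments at 1.0 µM and 20670361 to 21196909 under vehicle. The treated libraries lay further apart, with a median SD of log2 CPM of 0.186, against 0.0692 under vehicle. The 10 most abundant genes took 6.79% to 7.39% of fragments at 1.0 µM and 4.32% to 4.56% under vehicle, and ribosomal protein genes took 3.77% to 4.83% and 5.04% to 5.47%. In deviation from the group mean, each T-N1G library at 1.0 µM correlated with the mock library of the same number at that dose (r = 0.621, 0.659 and 0.775 across genes, which are not replicates). The same held under vehicle (r = 0.279, 0.279 and 0.192) but not for every number at 0.3 µM (r = 0.136, -0.0627 and 0.0204). The labels give no batch. Where the number as a block within treatment, an alternative chosen after seeing the data, changed a count for the difference between the lines, that value is given beside it. No label says that libraries came from separate cultures, so the p-values rest on a spread between libraries that may be technical.

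The fibroblast label was checked against markers. Col1a1, Col1a2, Vim and Pdgfrb were among 14 fibroblast markers tested, of which 2 (Ddr2 and Fbn1) were higher and 10 lower at 1.0 µM (median log2 -1.0). Col1a1, a type I collagen chain, had 1098, 1310.1 and 679 CPM at 1.0 µM, against 2728, 2446 and 2744 CPM under vehicle. Of 10 leukocyte markers 3 passed the expression filter, and the pan-leukocyte gene Ptprc had 0.860, 0.733 and 0.650 CPM at 1.0 µM against 0, 0.0460 and 0.0460 CPM under vehicle. All 3 were higher, Csf1r most (log2 4.72), with 4.79, 1.30 and 6.50 CPM at 1.0 µM, against 0.185, 0.0920 and 0.184 CPM under vehicle. Of 8 endothelial markers 5 passed, of 14 epithelial markers 8, and of 11 skeletal muscle and fat markers 7. The summed level of the fibroblast list was 3855 to 5128 CPM per library at 1.0 µM, against 10050.7 to 10918 CPM under vehicle, that of the leukocyte list 6.09 to 10.3 against 1.90 to 2.58 CPM, that of the endothelial list 26.0 to 39.5 against 5.20 to 6.90 CPM, that of the epithelial list 67.0 to 90.9 against 95.9 to 99.5 CPM, and that of the muscle and fat list 30.1 to 37.2 against 63.1 to 69.1 CPM. Kdr, a VEGF receptor, made up most of the endothelial sum, with 30.5, 23.2 and 35.0 CPM at 1.0 µM, against 4.96, 4.19 and 3.18 CPM under vehicle, while the endothelial gene Tie1 was at 0 in both groups and Tyrobp of the leukocyte list was at 0 in both. Of the 8 epithelial markers tested 5 were higher and 2 lower (37.5% and 38.9% over all genes), with a median log2 of 1.34. The lower epithelial sum followed Krt19, at 42.6 ± 9.42 CPM at 1.0 µM and 79.2 ± 3.42 CPM under vehicle. Grhl2, among those that rose, had 5.77, 7.78 and 8.45 CPM at 1.0 µM, against 0, 0.0920 and 0.0460 CPM under vehicle. The part of other cell types in the results below was not tested. In bulk RNA, fewer cells of a type and less RNA per cell cannot be told apart.

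Transcripts of both T-N1G parts were far more abundant at 1.0 µM. Nfe2l1 (chromosome 11, 96678728 to 96691282 in mm9) had 21501, 14845 and 14686 CPM at 1.0 µM, against 1169, 1115 and 1022 CPM under vehicle. Mafg had 4238, 2933 and 2701 CPM at 1.0 µM, against 172, 162 and 142 CPM under vehicle. Library 1 was highest and no library of either gene overlapped between the groups. The 0.3 µM libraries lay between, at 4637 ± 543 CPM for Nfe2l1 and 814 ± 105 CPM for Mafg (SD, n = 3). Counts per gene do not separate the introduced Nrf1 sequence from the endogenous gene. In mock cells Nfe2l1 stood at 315 ± 18.6 CPM at 1.0 µM and 280 ± 7.03 CPM under vehicle, and its change did not pass (log2 0.17). Mafg rose in mock cells as well as in T-N1G cells. There, in mock cells, 0.958, 1.32 and 1.01 CPM were counted at 1.0 µM against 0.276, 0.417 and 0.365 CPM under vehicle, although the labels give the gene as deleted. Counts per gene cannot place those fragments inside or outside the deleted part.

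The other small Maf loci and the related CNC and BACH factors also moved. Of 9 genes tested in their list 7 were higher and 1 lower (37.5% and 38.9% over all genes). Nfe2l1 and Mafg, the T-N1G parts given above, and Keap1, which is outside these families, are counted among the 7. Maff had 45.4, 23.8 and 36.2 CPM at 1.0 µM, against 3.01, 3.08 and 2.53 CPM under vehicle (log2 3.61, SE 0.21, adjusted p = 3.61e-11), and Mafk had 6.69, 5.75 and 5.42 CPM at 1.0 µM, against 1.34, 1.43 and 1.29 CPM under vehicle (log2 2.13), although both genes are labelled as deleted in these cells. Bach1, a BTB-domain repressor that competes for small Maf partners, rose by 1.30 on the log2 scale, with 313, 215 and 297 CPM at 1.0 µM against 112, 114 and 109.9 CPM under vehicle. Its relative Bach2 was lower (log2 -1.09). Nfe2l2, encoding Nrf2, rose by 0.77, Keap1, the adaptor that targets Nrf2 for destruction, by 0.43, and Nfe2l3 did not pass the test (log2 0.35). Keap1 differed in its response between the lines. It was 113 ± 7.02 CPM at 1.0 µM and 83.5 ± 1.74 CPM under vehicle in T-N1G cells, and 24.2 ± 3.91 and 62.1 ± 2.27 CPM in mock cells, a difference in response of 1.79 on the log2 scale (adjusted p = 5.42e-09).

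Proteasome subunit genes rose in every ring of the complex. The 20S core is a barrel of outer alpha rings, which gate entry, and inner beta rings, which carry the peptidases. Of 7 alpha genes 7 were higher, with a median log2 change of 1.18, and of 7 constitutive beta genes 7 were higher, with a median of 1.44. Psma1 had 558, 418 and 393 CPM at 1.0 µM, against 150.0, 154 and 148 CPM under vehicle (log2 1.60, SE 0.10, adjusted p = 9.03e-11). The alpha ring ranged from Psma1 at 1.60, Psma5 at 1.54 and Psma6 at 1.47 to Psma7 at 1.18, Psma3 at 0.92 and Psma4 at 0.82 on the log2 scale. Psma2 rose least (0.27), with 150.3, 141 and 118 CPM at 1.0 µM, against 109, 117 and 115 CPM under vehicle. Psmb4, a non-catalytic beta subunit, rose most in its ring, with 565, 411 and 393 CPM at 1.0 µM, against 119, 124 and 118 CPM under vehicle (log2 1.92, SE 0.11, adjusted p = 2.15e-11). Among the catalytic subunits, Psmb7 rose by 1.63, Psmb6 by 1.19 and Psmb5, the chymotrypsin-like subunit that MG132 chiefly blocks, by 0.32. Psmb2 (1.47), Psmb3 (1.44) and Psmb1 (0.90) made up the rest of the ring. The calls of Psma2 and Psmb5 were lost with scaling by library size alone (log2 0.12 and 0.17), and that of Psmb5 also without library 1 at 1.0 µM (0.21).

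The 19S particle, which recognises, unfolds and feeds substrates into the core, rose as well. All 6 genes of its ATPase ring were higher (median log2 1.77), from Psmc4 (2.24), Psmc6 (1.87), Psmc5 (1.77) and Psmc3 (1.77) to Psmc2 (1.58) and Psmc1 (1.16). Psmc4 had 539, 399 and 369 CPM at 1.0 µM, against 91.0, 98.1 and 88.0 CPM under vehicle, so that the treated libraries stood far above the others. Of 13 non-ATPase subunit genes 12 were higher (median 1.25). Psmd4 and Adrm1, both ubiquitin receptors, rose by 2.43 and 2.01, the lid scaffold genes Psmd11 by 2.24, Psmd12 by 1.79, Psmd3 by 1.73 and Psmd6 by 1.47, and Psmd14, the lid deubiquitinase, by 1.23. The large base subunits Psmd1 and Psmd2 each rose by 1.25. Psmd7 (1.12), Psmd13 (0.73) and Psmd8 (0.57) followed. Shfm1, the smallest lid subunit, was the gene that did not pass at the adjusted threshold (log2 -0.42), with 117, 90.9 and 58.0 CPM at 1.0 µM, against 116, 124 and 115 CPM under vehicle. It passed as lower without library 1 at 1.0 µM (-0.64) and with scaling by library size alone (-0.57).

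**Figure D1:**
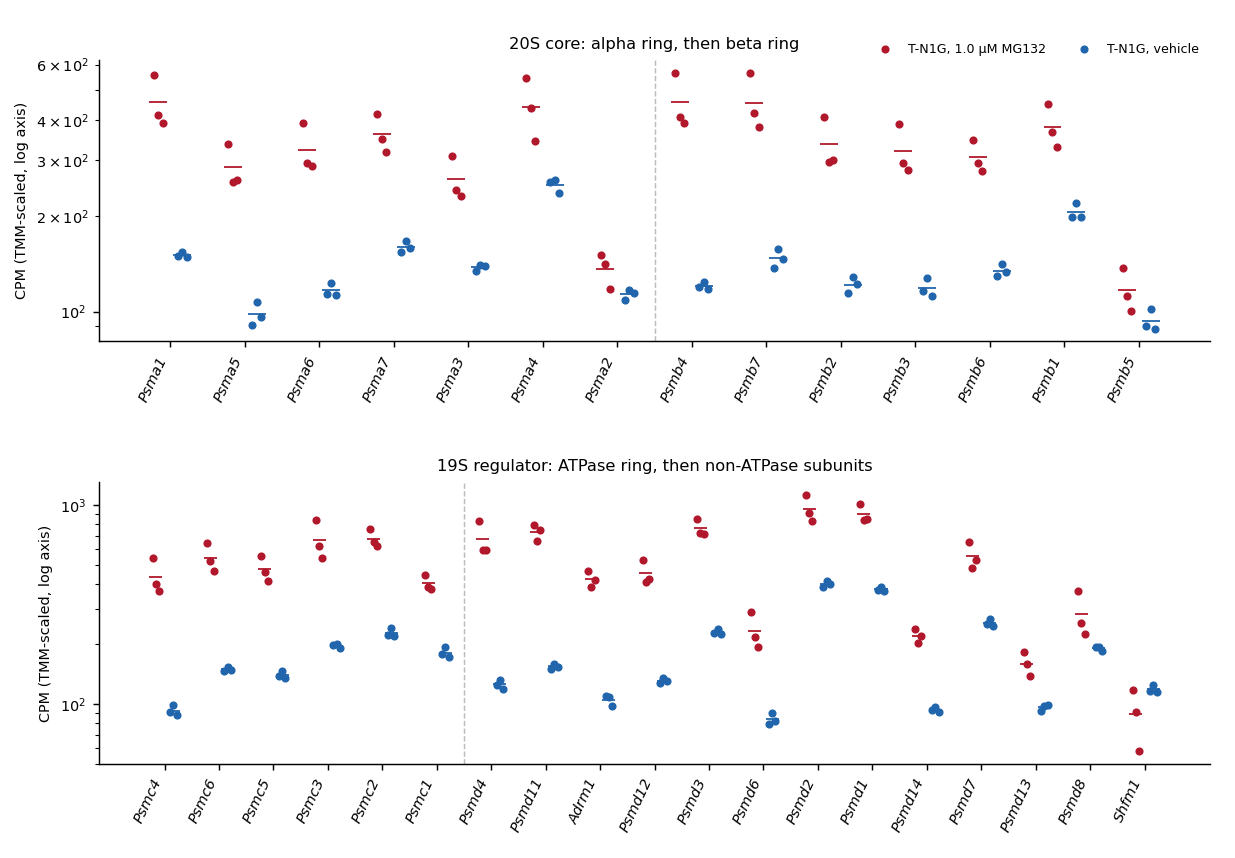
CPM (log axis) of the 33 proteasome subunit genes in each T-N1G library, with 1.0 µM MG132 left of vehicle for each gene, points for libraries and a short line for the group mean. The treated points of Psmc4 (369 to 539 CPM) lie far above its vehicle points (88.0 to 98.1 CPM), while those of Shfm1 overlap its vehicle points.

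The proteasome genes changed less between the doses than between vehicle and 1.0 µM. Between 0.3 and 1.0 µM, 29.3% of all genes rose and 30.8% fell (60.0% in all), and 1 alpha gene (Psma6, log2 0.42) rose while 1 (Psma2, -0.53) fell. Of the beta genes 2 rose, Psmb7 (0.45) and Psmb4 (0.37), of the 6 ATPase genes 4, and of the non-ATPase genes 6, with the steps of the last group led by Psmd4 (0.54). Median steps of the 4 groups were -0.03, 0.04, 0.32 and 0.25 on the log2 scale. These counts depended on library 1 at 1.0 µM, without which 4 alpha and 3 beta genes fell and 2 ATPase genes rose. Psmb4 lost its call in this step when only the groups compared were fitted (0.37). Against the mock response at 1.0 µM, where 22.9% of all genes responded more in T-N1G cells and 22.1% less, 7 of 7 alpha, 7 of 7 beta, 6 of 6 ATPase and 11 of 13 non-ATPase genes responded more. Shfm1 passed as well with the block (difference 0.36). Psmd8 was among those that did not pass (difference -0.07), with changes of 0.57 in T-N1G cells and 0.63 in mock cells.

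Promoters of Adrm1, a ubiquitin receptor of the base, and Psmc6, an ATPase, are shown because both genes rose and their RefSeq promoters (GRCm38.p6, 250 bases before to 50 after the start) hold a match to TGACNNNGC, the core of the antioxidant response element. Capitals mark the match, which starts, counted from the first transcribed base as 1, at base -162 in Adrm1 (chr2:180171338-180171637, + strand) and, read on the opposite strand, at -227 in Psmc6 (chr14:45329574-45329873, + strand).
Adrm1: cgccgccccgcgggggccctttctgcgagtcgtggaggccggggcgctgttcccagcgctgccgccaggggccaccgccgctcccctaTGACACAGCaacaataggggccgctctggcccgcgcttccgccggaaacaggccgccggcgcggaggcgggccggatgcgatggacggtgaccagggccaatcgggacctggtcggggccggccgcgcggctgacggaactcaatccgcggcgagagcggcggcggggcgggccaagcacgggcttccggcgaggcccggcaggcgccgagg
Psmc6: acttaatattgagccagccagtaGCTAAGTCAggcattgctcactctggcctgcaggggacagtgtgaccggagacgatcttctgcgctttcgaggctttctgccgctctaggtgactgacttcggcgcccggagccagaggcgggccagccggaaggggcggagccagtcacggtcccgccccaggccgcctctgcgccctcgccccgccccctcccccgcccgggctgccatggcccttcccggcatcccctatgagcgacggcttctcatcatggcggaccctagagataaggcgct
On either strand, the match was found in 0 of 7 alpha, 2 of 4 beta, 1 of 5 ATPase and 3 of 11 non-ATPase genes with a listed promoter, and in 14% of all 27025 promoters. A match to these letters is a description of the window and not a binding site.

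Genes that help build and steer the proteasome went both ways. Of 8 assembly chaperones 4 were higher and 4 lower, where 37.5% and 38.9% of all genes were. Psmg3 (1.38), Pomp (0.52), Psmd5 (1.32) and Psmd9 (1.14) rose, and Psmg1 (-0.84), Psmg2 (-0.42), Psmg4 (-0.56) and Psmd10 (-0.30) fell. Of 14 activators and associated factors 7 were higher and 3 lower, beside the same shares over all genes. Psme4, the alternative cap PA200, had 541, 519 and 516 CPM at 1.0 µM, against 166, 180.4 and 191 CPM under vehicle (log2 1.55, SE 0.07, adjusted p = 1.43e-12). The proteasome-bound deubiquitinase gene Usp14 (log2 1.61), AI314180, encoding the Ecm29 adaptor (1.65), the inhibitor gene Psmf1 (1.61) and the shuttle genes Ubqln1 (1.75), Rad23b (1.21) and Ubqln2 (0.18) rose too. The interferon-linked 11S cap gene Psme1 was lower, with 12.4, 14.8 and 15.2 CPM at 1.0 µM, against 31.4, 29.8 and 32.3 CPM under vehicle. Ube3c (-0.94) and Ubqln4 (-0.98) were lower as well. The call of Psmd10 was lost without 1.0 µM library 3 (-0.12), vehicle library 2 (-0.27) or vehicle library 3 (-0.26) and that of Ubqln2 without 1.0 µM library 2 (0.13) or vehicle library 1 (0.12). Psme2 (-0.03), Psme3 (0.14) and Uchl5 (-0.01) did not pass.

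Immunoproteasome subunit genes replace the constitutive catalytic ones under interferon. Among 8 genes of that list and of antigen transport 4 were higher and 1 lower (37.5% and 38.9% over all genes). Psmb8 had 6.20, 1.24 and 6.23 CPM at 1.0 µM, against 2.41, 0.368 and 0.368 CPM under vehicle, with library 2 at 1.0 µM below library 1 under vehicle. Tap2, a peptide transporter gene, had 57.7, 32.2 and 57.6 CPM at 1.0 µM, against 12.0, 6.86 and 7.46 CPM under vehicle, without overlap. Psmb9 (-0.07), Tap1 (0.80, and 1.17 and past the test without library 2 at 1.0 µM) and Tapbp (0.51) did not pass, B2m rose by 0.87, and Psmb10 was lower at -0.52. The thymic subunit gene Psmb11 was higher by 2.86 at a low level, 0.860, 0.564 and 0.704 CPM at 1.0 µM against 0.0927, 0.0920 and 0.0921 CPM under vehicle. Without library 3 at 1.0 µM 2 genes of the immune list were higher, since Psmb8 and B2m lost their calls. Psmb8 lost its call without 1.0 µM library 1 (1.85), 1.0 µM library 3 (1.82), vehicle library 2 (1.72) or vehicle library 3 (1.72), B2m without 1.0 µM library 1 (0.59), 1.0 µM library 3 (0.84), vehicle library 2 (0.79) or vehicle library 3 (0.74), and Psmb10 without 1.0 µM library 1 (-0.47), 1.0 µM library 2 (-0.39) or vehicle library 1 (-0.40).

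The p97 machinery, which pulls ubiquitin-tagged proteins out of membranes and complexes, rose in most of its parts. Vcp, the p97 ATPase, had 2685, 2034 and 2184 CPM at 1.0 µM, against 1088, 1136 and 1092 CPM under vehicle (log2 1.06, SE 0.094, adjusted p = 9.06e-09). Its substrate adaptors Nploc4 and Ufd1l rose by 1.90 and 1.79. Of 17 further cofactors 13 were higher and 3 lower. Zfand2a, also called AIRAP, which is known as a heat shock and arsenite response gene, had 1024, 939 and 1143 CPM at 1.0 µM, against 60.3, 59.2 and 55.5 CPM under vehicle (log2 4.15, SE 0.086, adjusted p = 1.00e-16). Ubxn8 (2.34), Zfand5 (2.16), Ubxn4 (2.06) and Nsfl1c (1.72), which encodes the p47 adaptor, followed. Zfand1 (-1.63), Zfand2b (-1.12) and Ubxn2b (-1.12) were lower. Zfand2a had about the same change in mock cells (log2 4.08; difference 0.07, not past the test), while Ubxn8 differed by 1.64 and Nploc4 by 1.61.

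Among genes known to process Nrf1 itself, Ddi2, encoding the protease that cleaves it, stood at 55.1, 53.2 and 63.4 CPM at 1.0 µM, against 52.8, 53.5 and 51.0 CPM under vehicle, and did not pass the test, although DESeq2 called it higher at 0.18 (log2 0.13). Ngly1, the glycanase that edits it, did not pass either (0.01), but fell in mock cells (-1.26), and the responses differed by 1.27 (15.3 ± 4.94 CPM at 1.0 µM and 15.2 ± 0.911 CPM under vehicle in T-N1G cells). Syvn1, the Hrd1 ligase, and Derl1 rose by 0.41 and 0.21. Btrc, the ligase adaptor that recognises nuclear Nrf1, was lower (-0.63). Fbxw7 (0.11), Sel1l (-0.15) and Derl2 (-0.14) did not pass, and with scaling by library size alone Derl1 did not (0.07).

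Among the ubiquitin precursor and activating enzyme genes 4 of 10 were higher and 2 lower. Ubb, a polyubiquitin gene, had 2067, 2623 and 2137 CPM at 1.0 µM, against 280.0, 217 and 216 CPM under vehicle (log2 3.26, SE 0.19, adjusted p = 8.72e-11). The ribosomal fusion gene Rps27a did not pass (-0.23), and the activating enzyme gene Uba1 rose slightly (0.21), but not without 1.0 µM library 2 (0.15). Uba2 (-0.25) and Sae1 (-0.52) were lower, and Uba3 (0.10), Uba6 (-0.06) and Uba7 (0.10) did not pass. Of 31 conjugating enzymes 13 were higher and 10 lower, with a median of 0.07, where 37.5% and 38.9% of all genes were higher and lower and the median was -0.0057. Ube2o, known as a quality-control ligase for orphan proteins, rose most (log2 1.95, SE 0.062, adjusted p = 2.96e-14), with 276, 271 and 264 CPM at 1.0 µM, against 68.9, 70.2 and 71.3 CPM under vehicle. Ube2f (1.74), Ube2g2 (1.35), Ube2j2 (1.23) and Ube2k (0.77) came next, and Ube2c (-2.97), Ube2d1 (-1.95), Ube2t (-0.73), Ube2e3 (-0.71) and Ube2g1 (-0.64) fell most. Of 40 USP deubiquitinase genes 23 were higher and 11 lower. Usp18 (2.62, with its call lost without 1.0 µM library 3 (1.66)), which also belongs to the interferon genes below, Usp3 (1.88), Usp38 (1.72), Usp19 (1.67) and Usp45 (1.60) rose most, and Usp46 (-2.17), Usp21 (-1.06), Usp25 (-0.77), Usp4 (-0.67) and Usp1 (-0.60) fell most. Usp5, which takes apart free ubiquitin chains, rose in T-N1G cells (1.15) and fell in mock cells (-0.96), a difference of 2.11.

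Antioxidant genes went both ways. In glutathione supply, Slc7a11, the cystine import transporter, had 179, 119 and 218 CPM at 1.0 µM, against 13.0, 9.52 and 8.15 CPM under vehicle (log2 4.07, SE 0.28, adjusted p = 3.42e-09). Srxn1, which repairs oxidised peroxiredoxins, had 645, 402 and 635 CPM at 1.0 µM, against 47.8, 46.4 and 40.8 CPM under vehicle (log2 3.64, SE 0.15, adjusted p = 8.58e-13). Slc3a2, the partner chain of Slc7a11 (log2 2.72), the thioredoxin reductase gene Txnrd1 (1.47) and the glutathione synthesis genes Gclc (1.46), Gclm (1.14) and Gss (0.71) rose too. In the whole list of 27 genes tested 13 were higher and 7 lower (37.5% and 38.9% over all genes). The lower ones included the peroxide-removing peroxiredoxins and glutathione peroxidase, thioredoxin and its mitochondrial reductase, with Prdx2 (-1.50), Txnrd2 (-0.94), Txn1 (-0.79), Gpx1 (-0.69) and Prdx4 (-0.69). Of these genes 15 responded more than in mock cells and 1 less (3 without library 2 at 1.0 µM or with the block, and 22.9% and 22.1% over all genes), with Srxn1 at 2.91, Slc7a11 at 2.05, Gsr, glutathione reductase, at 1.69, and Chac1, which breaks glutathione down, at -0.88. A match to TGACNNNGC was found in 5 of 24 of their listed promoters (20.8%, 14% of all promoters).

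Glutathione S-transferase genes, which couple glutathione to electrophiles, were mostly lower. Of 14 tested 4 were higher and 8 lower (37.5% and 38.9% over all genes), with a median log2 of -0.47. Gsta1 rose by 1.83, Mgst1 by 1.51, Gsta4 by 0.65 and Gsto1 by 0.50, although Gsta1 did not pass without 1.0 µM library 3 (1.36) or vehicle library 3 (1.29) or by DESeq2 (1.92), and Gsta4 did not without 1.0 µM library 3 (0.41). Gstt3 (-1.94), Gstk1 (-1.59), Gstt1 (-1.55), Mgst3 (-1.51), Gstz1 (-1.24), Gstp1 (-1.04), Gstm1 (-0.48) and Gstm5 (-0.47) fell. Gstm4 (0.34) and Gstm2 (-0.13) did not pass. Several of these transferase genes are close paralogs, so how reads were divided among them is uncertain. Gstp1 had 8.54, 8.96 and 9.81 CPM at 1.0 µM, against 18.8, 19.2 and 18.1 CPM under vehicle, without overlap. Between the doses 7 fell and 0 rose (30.8% and 29.3% over all genes), with Gstm1 (-1.24) and Gsta4 (-0.98) among those that fell.

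Enzymes that make NADPH, the electron donor of these systems, went both ways, with 6 of 16 higher and 9 lower (37.5% and 38.9% over all genes). Taldo1, transaldolase of the pentose phosphate pathway, rose by 1.34, Me1, cytosolic malic enzyme, by 1.15, and Pgd by 0.57. The isocitrate dehydrogenase genes fell most. Idh1, the cytosolic enzyme, had 12.6, 17.1 and 13.0 CPM at 1.0 µM, against 79.2, 80.2 and 103 CPM under vehicle (log2 -2.62, SE 0.17, adjusted p = 3.18e-10), and Idh2, the mitochondrial enzyme, had 24.1, 54.6 and 27.6 CPM at 1.0 µM, against 200.4, 219.7 and 227 CPM under vehicle (log2 -2.60). Pgls (-2.04), the transhydrogenase gene Nnt (-1.86) and Me3 (-1.78) fell too. G6pdx, the entry enzyme of the pentose pathway, fell in T-N1G (-0.59) and in mock cells (-1.49), and the responses differed by 0.90 on the log2 scale.

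In quinone and carbonyl detoxification and export, 8 of 17 genes were higher and 3 lower (37.5% and 38.9% over all genes). Abcc2, a conjugate export pump, rose at a low level, with 3.99, 6.54 and 6.01 CPM at 1.0 µM, against 0.0463, 0 and 0.184 CPM under vehicle. Esd, an esterase, rose by 2.28 and Nqo1, the quinone reductase, by 0.53, and Nqo1 fell in mock cells (-1.45), a difference in response of 1.97. Ephx1 (-1.59), Nqo2 (-1.29) and Cbr1 (-1.05) fell. Of 16 haem genes 8 were higher and 6 lower, beside the same shares over all genes. Hmox1, haem oxygenase, had 2163, 1823 and 3312 CPM at 1.0 µM, against 932, 922 and 899.8 CPM under vehicle, and Blvrb, a biliverdin reductase, had 132, 102 and 125 CPM at 1.0 µM, against 19.6, 19.3 and 18.3 CPM under vehicle. The difference between the responses of the lines was -1.15 for Hmox1 (1.41 in T-N1G cells and 2.56 in mock cells) and 2.94 for Blvrb (2.66 and -0.28). Synthesis genes were split, with Alas1 (0.65) higher and Fech (-0.68) lower, and the haem and folate carrier gene Slc46a1 fell by 1.65.

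Iron genes went both ways. Tfrc, the transferrin receptor through which cells take up iron, had 51.8, 63.8 and 47.0 CPM at 1.0 µM, against 163, 195 and 169 CPM under vehicle (log2 -1.70, SE 0.13, adjusted p = 2.51e-09). Heph, a ferroxidase that works with the iron exporter, rose by 2.37, Hfe, which binds the transferrin receptor, by 2.48, and Ftl1, ferritin light chain, by 0.91. Ferritin heavy chain, Fth1, did not pass (0.14), nor did the exporter gene Slc40a1 (0.39). In all 9 of 17 were higher and 3 lower (37.5% and 38.9% over all genes). Of 9 genes of metallothioneins, which bind zinc and copper, and zinc transport 4 were higher and 2 lower. Mt1 was lower (-0.38, with its call lost without 1.0 µM library 1 (-0.21) or vehicle library 3 (-0.30)), and Mt2 did not pass (0.09). Mt3 was higher (3.89) with 1.66, 1.01 and 3.03 CPM at 1.0 µM, against 0.139, 0.138 and 0.0921 CPM under vehicle. Mtf1, the metal-sensing transcription factor gene, rose by 2.09, the zinc exporter gene Slc30a4 by 0.93 and Slc39a6 by 0.50, Slc39a10 fell by 1.78, and Slc30a1 (0.22) and Slc30a5 (0.00) did not pass.

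The inducible Hsp70 genes were among the genes of largest rise over vehicle, and chaperone genes went both ways between the doses. In that step 5 of 12 genes of the HSP70 and HSP110 list rose and 3 fell, 7 of 13 of the HSP90 list rose and 1 fell, and 14 of 34 co-chaperone genes rose and 10 fell, where 29.3% of all genes rose and 30.8% fell. Hspa1a, an inducible Hsp70 (chromosome 17, 35106304 to 35109101 in mm9), had 2.09, 2.53 and 2.39 CPM under vehicle, 36.7, 39.1 and 25.2 CPM at 0.3 µM and 1628, 818 and 795 CPM at 1.0 µM (log2 8.85, SE 0.41, adjusted p = 7.03e-11 for 1.0 µM over vehicle). Its copy Hspa1b had 16.2, 15.9 and 17.2 CPM under vehicle, 281, 292 and 219.6 CPM at 0.3 µM and 4447, 3350.3 and 2724 CPM at 1.0 µM. No library overlapped between the 3 doses for either gene, but the genes are near-identical, so the division of reads between them is uncertain. Hspb1, the small heat shock protein Hsp27, had 1468, 1578 and 1114 CPM at 1.0 µM, against 11.9, 10.8 and 11.1 CPM under vehicle (log2 6.94, SE 0.24, adjusted p = 2.34e-13), with a step of 3.42 from 0.3 µM (adjusted p = 4.99e-09). Steps were smaller for Hsph1, the Hsp110 exchange factor (log2 3.83 over vehicle, 2.06 over 0.3 µM), Dnajb1, the main Hsp40 (3.06 and 1.85), Bag3, which couples Hsp70 to autophagy (2.88 and 1.31), and Hsp90aa1, inducible Hsp90 (2.96 and 0.98). Of the 33 proteasome subunit genes Psmd4 had the largest step, 0.54.

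**Figure D2:**
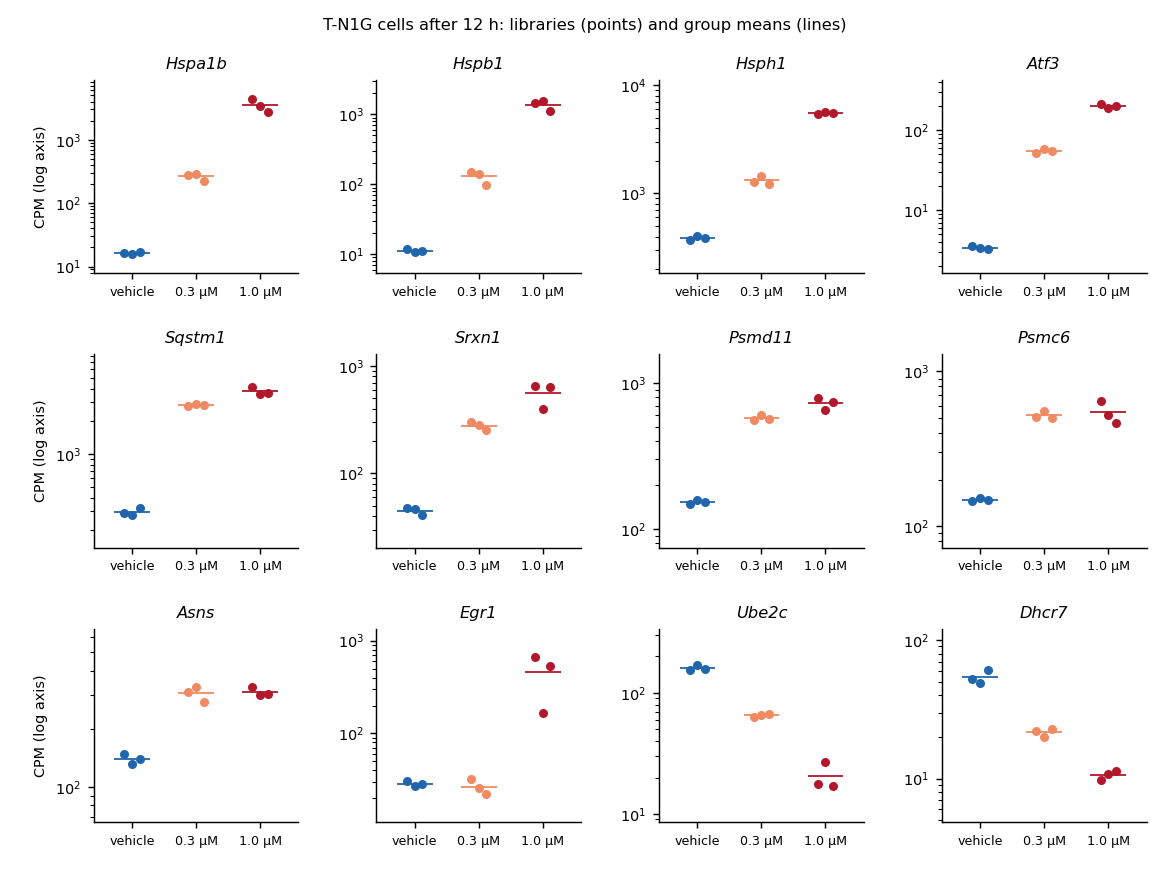
Levels (CPM, log axis) of 12 genes in T-N1G libraries under vehicle, 0.3 µM and 1.0 µM MG132, with a point for each library and a line for the group mean. Hspa1b and Hspb1 climb at each dose, Psmc6 (step 0.06 from 0.3 to 1.0 µM) hardly after 0.3 µM, Egr1 at 0.3 µM overlaps its vehicle level, and Ube2c and Dhcr7 fall at each dose.

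Across the HSP70 and HSP110 list 8 of 12 were higher and 4 lower. Hspa4l (1.34), Hspa9 (0.87), the mitochondrial member, Hspa13 (0.82), Hspa4 (0.79) and Hspa1l (0.68) rose, and Hspa12b (-1.75), Hspa12a (-1.20), Hspa2 (-0.49) and Hspa14 (-0.22) fell. Hspa14 lost its call without 1.0 µM library 1 (-0.17), 1.0 µM library 3 (-0.12), vehicle library 1 (-0.22), vehicle library 2 (-0.18) or vehicle library 3 (-0.22). Hspa8, the constitutive member, was left unprocessed in 9 libraries and has no value here. In the list of HSP90, small heat shock proteins and heat shock factors 9 of 13 were higher and 2 lower. Cryab (2.32), a lens crystallin and chaperone, Hspb8 (1.94), the mitochondrial pair Hspd1 (1.76) and Hspe1 (1.69), and Hsp90ab1 (1.71) rose. Hspb6 (-0.61) and Hspb11 (-0.58) fell, and Trap1 (-0.06) and Hsf4 (-0.45) did not pass. Of the heat shock factors, Hsf1 rose by 0.22 and Hsf2 by 2.48, with 203, 182 and 182 CPM of Hsf2 at 1.0 µM, against 31.0, 35.8 and 35.1 CPM under vehicle. Hsf2 responded more than in mock cells, by 1.49, while the differences for Hspa1a (0.67), Hspa1b (0.42) and Hspb1 (0.03) did not pass. Hspb8 (-2.57) and Hspa4l (-1.41) responded less than in mock cells.

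Co-chaperone genes rose in 22 of 34 cases and fell in 6. Besides Dnajb1 and Bag3, Dnaja4 (2.96), Dnajb4 (2.64) and Dnajb2 (2.42) led. The lower genes were Dnajb5 (-1.26), the Hsp90 immunophilins Fkbp5 (-1.06) and Fkbp4 (-0.62), Stub1 (-0.79), which encodes the chaperone-bound ligase CHIP, Bag5 (-0.68) and Dnaja3 (-0.50). The cytosolic chaperonin TRiC, which folds actin and tubulin, rose in 7 of 8 subunit genes, from Cct3 (1.05), Cct7 (0.85) and Cct2 (0.59) to Cct8 (0.49), Cct6a (0.46), Cct4 (0.37) and Cct5 (0.36), and Tcp1 did not pass (-0.08).

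Promoters of Hsph1 and of Chordc1, an Hsp90-binding co-chaperone that rose by 2.05, are shown for the heat shock element, read as 3 units of TTC and GAA in alternation, each 2 bases from the next, on both strands. Capitals mark the matches in the RefSeq promoters (GRCm38.p6), which start 15 bases after the first transcribed base in Hsph1 (chr5:149636266-149636565, - strand) and at base -4 in Chordc1 (chr9:18292017-18292316, + strand), where 3 matches overlap.
Hsph1: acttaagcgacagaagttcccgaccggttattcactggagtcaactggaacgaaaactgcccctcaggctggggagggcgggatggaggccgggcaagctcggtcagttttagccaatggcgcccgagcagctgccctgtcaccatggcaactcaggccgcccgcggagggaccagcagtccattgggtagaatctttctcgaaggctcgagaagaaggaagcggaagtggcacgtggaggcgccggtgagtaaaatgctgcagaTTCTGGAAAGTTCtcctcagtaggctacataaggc
Chordc1: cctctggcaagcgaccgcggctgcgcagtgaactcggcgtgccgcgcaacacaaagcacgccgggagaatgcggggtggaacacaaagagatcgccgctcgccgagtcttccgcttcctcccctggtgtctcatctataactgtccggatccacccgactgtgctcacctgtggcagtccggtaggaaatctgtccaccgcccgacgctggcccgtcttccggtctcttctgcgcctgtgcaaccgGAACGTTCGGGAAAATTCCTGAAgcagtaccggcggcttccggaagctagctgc
The element was in 1 of 10 listed promoters of the HSP70 list, 2 of 8 of the HSP90 list and 2 of 30 co-chaperones, against 0.662% of all 27025 promoters.

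Stress regulators of the ATF4-CHOP pathway, which couples blocked translation to amino acid supply, were higher in 16 of 24 cases and lower in 6. Atf3, a stress-induced transcription factor, had 218, 192 and 206 CPM at 1.0 µM, against 3.52, 3.31 and 3.27 CPM under vehicle (log2 5.93, SE 0.12, adjusted p = 1.00e-16). Ppp1r15a, encoding the GADD34 subunit that restores translation, had 499, 366 and 362 CPM at 1.0 µM, against 24.1, 26.2 and 22.8 CPM under vehicle (log2 4.07, SE 0.14, adjusted p = 9.82e-14). Gdf15, a secreted stress hormone, rose by 3.13, Trib3, an ATF4 feedback gene, by 2.31, and Cebpb by 1.48. Atf4 itself rose by 0.63. Not all of these genes kept rising with dose. Ddit3, encoding CHOP, was higher than under vehicle (1.35) but lower than at 0.3 µM (log2 -0.62, SE 0.099, adjusted p = 4.37e-05), with 10.3, 8.24 and 9.71 CPM under vehicle, 39.7, 34.8 and 36.6 CPM at 0.3 µM and 22.8, 25.7 and 23.6 CPM at 1.0 µM. Atf4 (-0.36) and Nupr1 (-0.54) were also lower than at 0.3 µM, and Trib3 did not pass (-0.06). Of the kinases that start the pathway, the haem-regulated Eif2ak1 rose by 1.46, by 1.36 more than in mock cells, and the double-stranded RNA sensor Eif2ak2 by 1.02. Eif2ak3, the endoplasmic reticulum sensor PERK (-0.38), fell, as did Vldlr (-0.81, with its call lost without 1.0 µM library 2 (-0.54) or vehicle library 1 (-0.67)), Eif2b5 (-0.74), Ddit4 (-0.61) and Jdp2 (-0.56).

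Cytosolic aminoacyl-tRNA synthetase genes, known ATF4 targets that charge tRNAs, were higher in 16 of 20 cases and lower in 4 (median log2 0.80). Nars (1.93), Aars (1.73), Wars (1.38), Rars (1.20) and Hars (1.17) led. Aars had 1616, 1379 and 1433 CPM at 1.0 µM, against 472, 416 and 449 CPM under vehicle. Vars was the clear exception (-0.95), with Qars (-0.31), Farsb (-0.25) and Dars (-0.23) also lower. With only the groups compared in the fit, Vars alone stayed lower, and Qars also lost its call without 1.0 µM library 1 (-0.19), 1.0 µM library 3 (-0.19), vehicle library 1 (-0.29) or vehicle library 3 (-0.26) and Farsb without 1.0 µM library 1 (-0.19) or vehicle library 2 (-0.17). Of 24 amino acid supply genes 12 were higher and 8 lower (37.5% and 38.9% of all genes). After Slc7a11 and Slc3a2, Slc7a3 (1.90), Psph of serine synthesis (1.24) and Asns, asparagine synthetase (1.16), rose most. The proline synthesis gene Pycr1 (-1.90), Slc43a1 (-1.60), Prodh (-1.20, with its call lost without 1.0 µM library 2 (-0.96)) and Slc1a5 (-0.49) were among those that fell.

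The promoters of Atf3 and Aars are shown for TGATGNAA, the composite element of CHOP and ATF4. Capitals mark the match, read on the opposite strand, at base -110 in Atf3 (chr1:191183284-191183583, - strand) and 2 such matches, the first at base -112, in Aars (chr8:111033592-111033891, + strand), taken from RefSeq (GRCm38.p6).
Atf3: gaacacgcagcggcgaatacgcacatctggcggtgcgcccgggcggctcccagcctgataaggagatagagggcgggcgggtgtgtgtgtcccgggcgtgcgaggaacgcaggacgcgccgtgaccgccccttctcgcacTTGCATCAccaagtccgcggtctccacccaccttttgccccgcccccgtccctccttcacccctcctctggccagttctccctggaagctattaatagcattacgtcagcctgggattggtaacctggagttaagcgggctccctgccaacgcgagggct
Aars: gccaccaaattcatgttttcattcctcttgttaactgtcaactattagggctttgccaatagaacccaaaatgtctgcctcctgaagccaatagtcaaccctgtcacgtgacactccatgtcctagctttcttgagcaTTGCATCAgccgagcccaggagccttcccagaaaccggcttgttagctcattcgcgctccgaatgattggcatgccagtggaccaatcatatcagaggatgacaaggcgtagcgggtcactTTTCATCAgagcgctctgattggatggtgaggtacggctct
On either strand it was in 5 of 12 listed synthetase promoters (41.7%), 6 of 23 stress regulators (26.1%) and 5 of 19 amino acid supply genes (26.3%), against 4.51% of all promoters.

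The unfolded protein response adjusts folding capacity in the endoplasmic reticulum. Of its 26 genes 7 were higher and 13 lower (37.5% and 38.9% over all genes), with a median log2 of -0.28. Hspa5, the lumenal Hsp70 BiP, had 6058, 3556 and 3168 CPM at 1.0 µM, against 1336, 1393 and 1493 CPM under vehicle (log2 1.60, SE 0.21, adjusted p = 3.31e-06). Dnajb9 (2.00), the sensor gene Ern1 (1.24), Atf6 (0.79) and Selk (0.53) rose too. Sec61b, a channel subunit, fell most (-2.01), followed by the lumenal folding genes Dnajc10 (-1.46), Sdf2l1 (-1.21), P4hb (-0.89) and Manf (-0.88). Xbp1, the transcription factor spliced by Ern1, was lower, with 39.2, 38.1 and 42.3 CPM at 1.0 µM, against 63.0, 65.4 and 77.4 CPM under vehicle. Herpud1 (0.12) and Hsp90b1 (0.13) did not pass. Between the doses 4 rose and 16 fell (29.3% and 30.8% over all genes), with 2 rising without library 1 at 1.0 µM or library 1 or 3 at 0.3 µM.

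Autophagy genes rose in 21 of 33 cases and fell in 7. Sqstm1, the p62 receptor for ubiquitin-tagged cargo, had 4144, 3607 and 3654 CPM at 1.0 µM, against 286, 278 and 318 CPM under vehicle (log2 3.69, SE 0.09, adjusted p = 1.14e-15). Other receptors rose too, Tax1bp1 by 2.14, Optn by 1.74 and Nbr1 by 1.39. Of the ATG8 family, whose proteins coat the autophagosome, Gabarapl1 rose by 2.18, Gabarap (-0.39) and Map1lc3a (-0.82) fell, and Map1lc3b (-0.17) and Gabarapl2 (0.19) did not pass. Atg14 (2.03) and Atg12 (1.86) rose, and Ulk2 (-1.60), Atg4b (-1.11), Atg9a (-0.98) and Wipi1 (-0.73) fell. In 15 cases the response was higher than in mock cells and in 5 lower (22.9% and 22.1% over all genes), and for Sqstm1 the difference was 1.62.

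Of 34 lysosomal genes 15 were higher and 8 lower (37.5% and 38.9% of all genes). Gla, alpha-galactosidase, rose by 2.60 and Ctsd, a lysosomal protease, by 1.70. In the proton pump, the peripheral genes Atp6v1h (2.30) and Atp6v1a (1.76) rose. Atp6v0a1, a membrane subunit, had 143, 119.6 and 166 CPM at 1.0 µM, against 51.0, 47.5 and 54.6 CPM under vehicle, while in mock cells it fell, with 18.9, 31.3 and 32.7 CPM at 1.0 µM, against 66.1, 66.5 and 65.8 CPM under vehicle, a difference in response of 2.74. Tfeb, the regulator of lysosomal genes, fell by 1.47, and Glb1 (-0.86), Grn (-0.77), Neu1 (-0.63, with its call lost without 1.0 µM library 1 (-0.42) or vehicle library 3 (-0.47)) and Atp6v0e (-0.53) fell too.

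Cholesterol and fatty acid synthesis genes were lower in 25 of 31 cases and higher in 1 (median log2 -1.20). Elovl6, which elongates fatty acids, had 6.20, 14.2 and 10.1 CPM at 1.0 µM, against 69.8, 75.9 and 88.5 CPM under vehicle (log2 -2.93, SE 0.21, adjusted p = 2.19e-09). In cholesterol synthesis, Tm7sf2 (-2.68) and Dhcr7 (-2.33), both sterol reductases, fell, as did Acat2 at its first step (-2.23). Without library 1 or 3 at 1.0 µM or vehicle library 3, 2, 3 and 2 genes of the list rose. Srebf2, the master regulator, fell by 0.74, and Srebf1 (0.09), Cyp51 (-0.21), Acaca (-0.13), Sc5d (0.10) and Pmvk (0.22) did not pass. None of the 21 listed promoters held TCACNCCAC, an SREBP element, on either strand, which 1.44% of all promoters hold.

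Genes of mitosis were lower in 28 of 37 cases and higher in 1 (median log2 -1.11). Ube2c, the conjugating enzyme of the anaphase-promoting complex, had 17.6, 26.7 and 17.1 CPM at 1.0 µM, against 154, 169 and 158 CPM under vehicle (log2 -2.97, SE 0.12, adjusted p = 3.90e-13). Nusap1, a spindle protein (-2.63), Aurkb, the chromosomal passenger kinase (-2.33), Cdc25b, a phosphatase that starts mitosis (-2.24), and the kinase gene Plk1 (-2.06) fell. Bub1b, a spindle checkpoint gene, was the exception (0.57), with 256, 233 and 173 CPM at 1.0 µM, against 141, 153 and 153 CPM under vehicle. Without library 3 at 1.0 µM 2 mitotic genes were higher. Bub1b fell in mock cells (-1.18), and the responses differed by 1.75. Between the doses 27 mitotic genes fell and 0 rose (30.8% and 29.3% over all genes). Of 40 replication genes 13 were higher and 17 lower, close to the 37.5% and 38.9% of all genes. Gins3 (1.80), Mcm10 (1.5), Orc1 (1.21) and Orc6 (0.75) were among those that rose. Ccnd1, the G1 cyclin, had 12.0, 24.6 and 9.92 CPM at 1.0 µM, against 97.4, 118 and 115 CPM under vehicle, and Tk1 (-2.66), Ccne1 (-1.74), Uhrf1 (-1.68) and Pold1 (-1.59) fell too. Of 9 histone genes outside the replication clusters 7 fell, among them H1f0 (-2.65), H2afx (-1.88), H3f3a (-1.79), H2afv (-1.61), H2afz (-1.0), H1fx (-0.71, with its call lost without 1.0 µM library 1 (-0.54) or 1.0 µM library 2 (-0.53)) and H2afy (-0.18, with its call lost when only the groups compared were fitted), and H3f3b (0.03) and H2afj (-0.19) did not pass.

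The promoters of Ube2c and Cdc25b are shown for the cell cycle homology region, TTTGAA or TTCGAA, through which repressor complexes are known to hold mitotic genes down. Capitals mark the match at base -29 in Ube2c (chr2:164769679-164769978, + strand), read on the opposite strand, and 7 bases after the first transcribed base in Cdc25b (chr2:131186698-131186997, + strand), read from RefSeq (GRCm38.p6).
Ube2c: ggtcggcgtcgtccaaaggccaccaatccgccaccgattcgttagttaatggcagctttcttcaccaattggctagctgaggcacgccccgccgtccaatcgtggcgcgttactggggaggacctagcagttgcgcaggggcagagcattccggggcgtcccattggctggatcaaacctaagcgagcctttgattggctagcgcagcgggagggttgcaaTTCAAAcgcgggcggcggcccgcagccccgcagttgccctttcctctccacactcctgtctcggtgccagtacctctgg
Cdc25b: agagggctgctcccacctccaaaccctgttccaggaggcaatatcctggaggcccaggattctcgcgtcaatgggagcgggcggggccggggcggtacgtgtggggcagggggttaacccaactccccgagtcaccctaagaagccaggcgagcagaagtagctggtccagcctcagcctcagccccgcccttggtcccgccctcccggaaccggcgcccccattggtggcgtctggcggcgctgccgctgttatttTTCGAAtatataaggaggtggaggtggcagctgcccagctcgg
On either strand the letters were in 24 of 31 listed mitotic promoters (77.4%) and 7 of 32 replication promoters (21.9%), against 21.7% of all promoters. In the 200 bases before the start alone they were in 11 of 31 mitotic promoters (35.5%), against 15.4% of all.

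AP-1 and immediate-early genes, which answer growth and stress kinases, were higher in 23 of 29 cases and lower in 4 (median log2 1.64). Fosl1, an AP-1 subunit, had 127, 91.9 and 154 CPM at 1.0 µM, against 4.22, 5.11 and 2.99 CPM under vehicle (log2 4.92, SE 0.21, adjusted p = 1.88e-12). Egr1, a zinc finger factor, had 30.9, 27.5 and 28.4 CPM under vehicle, 32.3, 25.8 and 22.2 CPM at 0.3 µM and 671, 167 and 536 CPM at 1.0 µM. Its 0.3 µM and vehicle libraries overlapped, and library 2 was lowest at 1.0 µM. Fosb, an AP-1 subunit (3.77), and Dusp4, a kinase phosphatase (3.60), also rose. Dusp2 was counted in 1 fragment under vehicle and stood at 2.09, 0.169 and 0.542 CPM at 1.0 µM, a count ratio of 58.2 (95% counting interval 9.95 to 2349). Srf (-0.99), Klf2 (-0.83), Jdp2 (-0.56) and Jund (-0.45) were lower. Against mock cells 3 responded more (6 without library 2 of the treated T-N1G cells, 5 without library 1 of the treated mock cells or with the block) and 11 less, with Egr1 at 2.09 and Nr4a2, an orphan nuclear receptor, at -1.77. Of all genes 22.9% responded more and 22.1% less.

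Inflammatory genes were higher in 19 of 29 cases and lower in 4. Il6 had 13.3, 3.72 and 10.1 CPM at 1.0 µM, against 0.602, 0.276 and 0.184 CPM under vehicle, and Ptgs2, the inducible prostaglandin synthase, had 1575, 742 and 1211 CPM at 1.0 µM, against 72.9, 60.5 and 38.4 CPM under vehicle (log2 4.36, SE 0.32, adjusted p = 1.31e-08). Ptges, which makes a prostaglandin (2.81), and Nfkbiz (2.52) rose too, and Il1a, with 2 fragments under vehicle and 4.42, 1.58 and 3.68 CPM at 1.0 µM, had a count ratio of 104 (95% counting interval 28.4 to 867). Cxcl12, a stromal chemokine, fell (-2.69), with a difference from the mock response of -2.28, and the NF-kB inhibitor gene Nfkbia fell by 0.62, with Csf1 (-0.70, with its call lost without 1.0 µM library 1 (-0.52), 1.0 µM library 2 (-0.49) or vehicle library 1 (-0.63)) and Vcam1 (-0.48) also lower. The AP-1 element TGANTCA, on either strand, was in 9 of 21 listed promoters of these genes (42.9%) and 5 of 17 of matrix protease genes (29.4%), against 8.97% of all promoters.

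Interferon-stimulated genes were higher in 12 of 20 cases, by 2-fold or more in each, and lower in 1 (median log2 1.36). The libraries differed widely. Rsad2, the antiviral enzyme viperin, had 35.0, 23.2 and 126 CPM at 1.0 µM, against 1.53, 0.782 and 1.06 CPM under vehicle. Mx2, an antiviral GTPase, had 29.1, 10.3 and 93.7 CPM at 1.0 µM, against 2.59, 0.598 and 1.01 CPM under vehicle. Isg15, the ubiquitin-like modifier, had 23.7, 9.30 and 40.1 CPM at 1.0 µM, against 6.58, 2.35 and 2.99 CPM under vehicle. Library 3 was highest and library 2 lowest for these genes at 1.0 µM. Mx1 (4.26), Gbp2 (3.11) and Oasl2 (2.82) also rose, while Ifit2 (0.24) and Ifit3 (1.27) did not pass and Irf1 fell (-0.41). Without library 3 of the treated T-N1G cells 6 of the 20 were higher (median 0.79), and without the number 3 libraries of both lines at 1.0 µM 7 were. Between 0.3 and 1.0 µM 14 rose, 6 without library 3 at 1.0 µM, and 8 without library 2 or 3 at 0.3 µM. The medians were -0.11 for 0.3 µM against vehicle in T-N1G cells and 2.63 for 1.0 µM against vehicle in mock cells. Between the responses of the lines the result depended on the block. Without it, 0 of the 20 passed edgeR's test in either direction, 0 had an unadjusted p under 0.05, and DESeq2 called 1 lower. In mock cells at 1.0 µM library 3 was also highest and library 2 lowest for Rsad2, with 28.5, 16.6 and 67.8 CPM. With the number as a block within treatment, 8 responded less than in mock cells, among them Usp18 (difference -2.74, adjusted p = 3.42e-05) and Irf1 (-0.32, adjusted p = 0.0129), and 1, Rsad2, responded more (1.25, adjusted p = 0.000986). The number as a block over all treatments gave 2 lower. Without a block, 7 responded less when library 3 of the treated T-N1G cells was left out, and 4 when library 2 of the treated mock cells was.

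**Figure D3:**
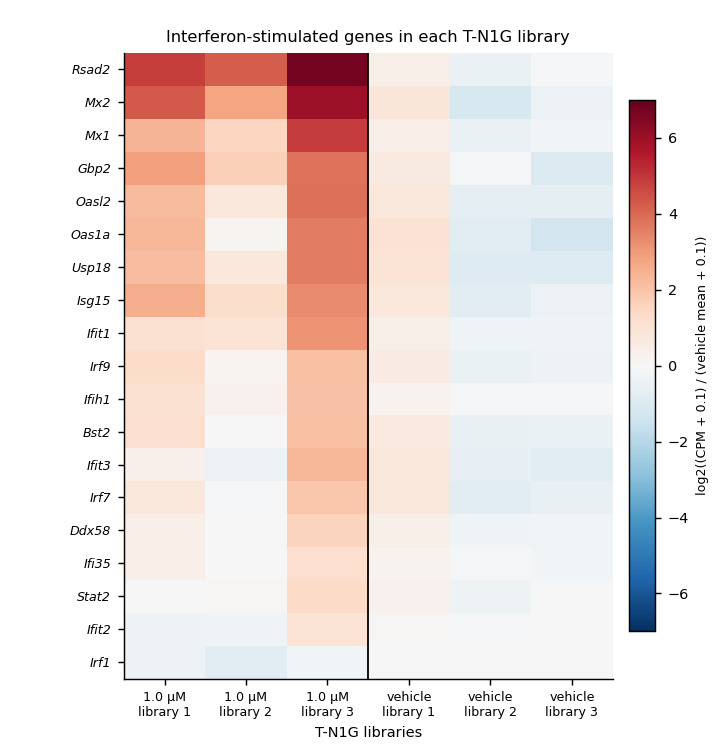
Named interferon-stimulated genes (rows) in each T-N1G library (columns, 1.0 µM MG132 left of vehicle), coloured by log2 of CPM plus 0.1 relative to the vehicle mean plus 0.1. For nearly all genes library 3 at 1.0 µM is the deepest red and library 2 the palest of the treated libraries, as for Rsad2 (126 and 23.2 CPM).

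Collagen genes were more often lower than higher. Of 21 collagen genes 4 were higher and 11 lower (median log2 -0.89). Col3a1, type III collagen, had 101, 155 and 78.2 CPM at 1.0 µM, against 742, 686 and 754 CPM under vehicle (log2 -2.71, SE 0.19, adjusted p = 1.27e-09). Col8a2 (-3.05), Col1a2 (-1.87), Col16a1 (-1.72) and Col8a1 (-1.51) fell too, and Col7a1, the anchoring fibril collagen (1.78), Col4a2 (0.91), Col4a1 (0.61) and Col5a3 (0.51) rose. Of 28 other matrix genes 7 were higher and 12 lower. Tnc, tenascin C (2.01), Fn1, fibronectin (1.64), and Fbn1, fibrillin (1.13), rose, and Prelp (-3.54), Fmod (-2.56), Loxl1, a cross-linking oxidase (-2.42), Pcolce (-2.24) and Sparc (-2.09) fell. Of 27 protease and inhibitor genes 10 were higher and 12 lower (37.5% and 38.9% over all genes). Mmp10, a stromelysin, had 2.89, 1.58 and 1.63 CPM at 1.0 µM and no fragment under vehicle, which makes it at least 43.4-fold higher against a floor of 3 fragments over the group. Mmp13, a collagenase, had 8.78, 5.24 and 4.23 CPM at 1.0 µM and 1 fragment under vehicle, a count ratio of 389 (95% counting interval 69.3 to 15416). Serpinb2 (7.19), Mmp9 (4.51) and the urokinase receptor gene Plaur (2.49) also rose. Adamts5, an aggrecanase, had 21.4, 23.1 and 21.7 CPM at 1.0 µM, against 404, 395 and 443 CPM under vehicle (log2 -4.23, SE 0.085, adjusted p = 1.00e-16), and Mmp11 (-2.02), Mmp14 (-1.61), Timp2 (-1.60) and Adamts2 (-1.45) fell.

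Contractile genes and targets of SRF and YAP were lower in 13 of 22 cases and higher in 3. Cnn2, a calponin (-2.62), Myl9, a myosin light chain (-2.29), and the tropomyosins Tpm2 (-1.66) and Tpm1 (-1.26) fell, and Cyr61 (1.79), Ctgf (1.53, with its call lost without 1.0 µM library 1 (0.87) or vehicle library 3 (1.27)) and Filip1l (0.88) rose. Cnn2 had 95.1, 135 and 119.5 CPM at 1.0 µM, against 743, 760.2 and 645 CPM under vehicle, without overlap. In 13 of these genes the response was lower than in mock cells (22.1% of all genes) and in 0 higher (22.9%).

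Of 25 genes of the p53 response 9 were higher and 12 lower, where 37.5% and 38.9% of all genes were. Gadd45a, a stress and DNA repair gene, had 210.4, 194 and 204 CPM at 1.0 µM, against 14.6, 11.5 and 11.7 CPM under vehicle (log2 4.01, SE 0.10, adjusted p = 1.97e-15). Plk3 (2.98), Tigar (1.41) and Mdm2 (1.28) rose, Cdkn1a, the p21 inhibitor, did not pass (-0.04), and Ei24 (-1.80), Eda2r (-1.45), Trp53inp1 (-1.27), Zmat3 (-1.24) and Bbc3 (-1.22) fell. Pmaip1, encoding the BH3-only protein Noxa, rose (1.63) but by less than in mock cells (difference -1.59), with 279, 213 and 189 CPM at 1.0 µM, against 75.3, 73.5 and 70.7 CPM under vehicle. In the BCL2 family 6 of 17 were higher and 9 lower. Bcl2l11, encoding Bim (1.11), Bcl2l13 (0.53) and Mcl1 (0.51) rose, and Bok (-2.42), Bcl2 (-1.77), Bmf (-1.13) and Bcl2l1 (-1.04) fell. Against mock cells 2 responded more and 9 less (22.9% and 22.1% over all genes), the latter including both the death-promoting Bok (-1.82) and the survival gene Bcl2 (-1.39).

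Respiratory chain genes were lower in 53 of 75 cases and higher in 8 (median log2 -0.71). Cox7b, a subunit of cytochrome oxidase, had 23.8, 25.0 and 16.4 CPM at 1.0 µM, against 123, 146 and 132 CPM under vehicle (log2 -2.62, SE 0.13, adjusted p = 3.29e-12). Atp5h of the ATP synthase (0.75) and Ndufa10 of complex I (0.56) rose most. Without library 1 at 1.0 µM 4 respiratory genes were higher, and without library 3 14 were. Of 76 genes of the mitochondrial ribosome 32 were higher and 29 lower, near the 37.5% and 38.9% of all genes. Mrps22 (1.90), Mrps31 (1.54) and Mrpl47 (1.52) were among those that rose, and Mrps24 (-1.84) and Mrps21 (-1.85) among those that fell. In 40 of the 76 the response was higher than in mock cells and in 9 lower (22.9% and 22.1% over all genes). Of 74 cytosolic ribosomal protein genes 11 were higher and 31 lower, with a median of -0.19. With scaling by library size alone 5 were higher and 48 lower, and 7 were higher without library 1 or 2 at 1.0 µM and 5 without vehicle library 1. Rpl26, the largest rise among them (3.08), had 2.58, 2.82 and 31.9 CPM at 1.0 µM, against 1.16, 0 and 3.27 CPM under vehicle, and its call was lost without 1.0 µM library 3 (0.88), vehicle library 1 (2.95) or vehicle library 2 (2.51). Ribosomal protein genes have many processed copies, so individual values are uncertain. Glycolysis genes were higher in 5 of 20 cases and lower in 9. Ldha, lactate dehydrogenase (-2.42), Pfkl (-1.73) and Tpi1 (-1.68) fell, and Gpi1 (1.11) and Aldoa (1.04) rose.

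**Figure D4:**
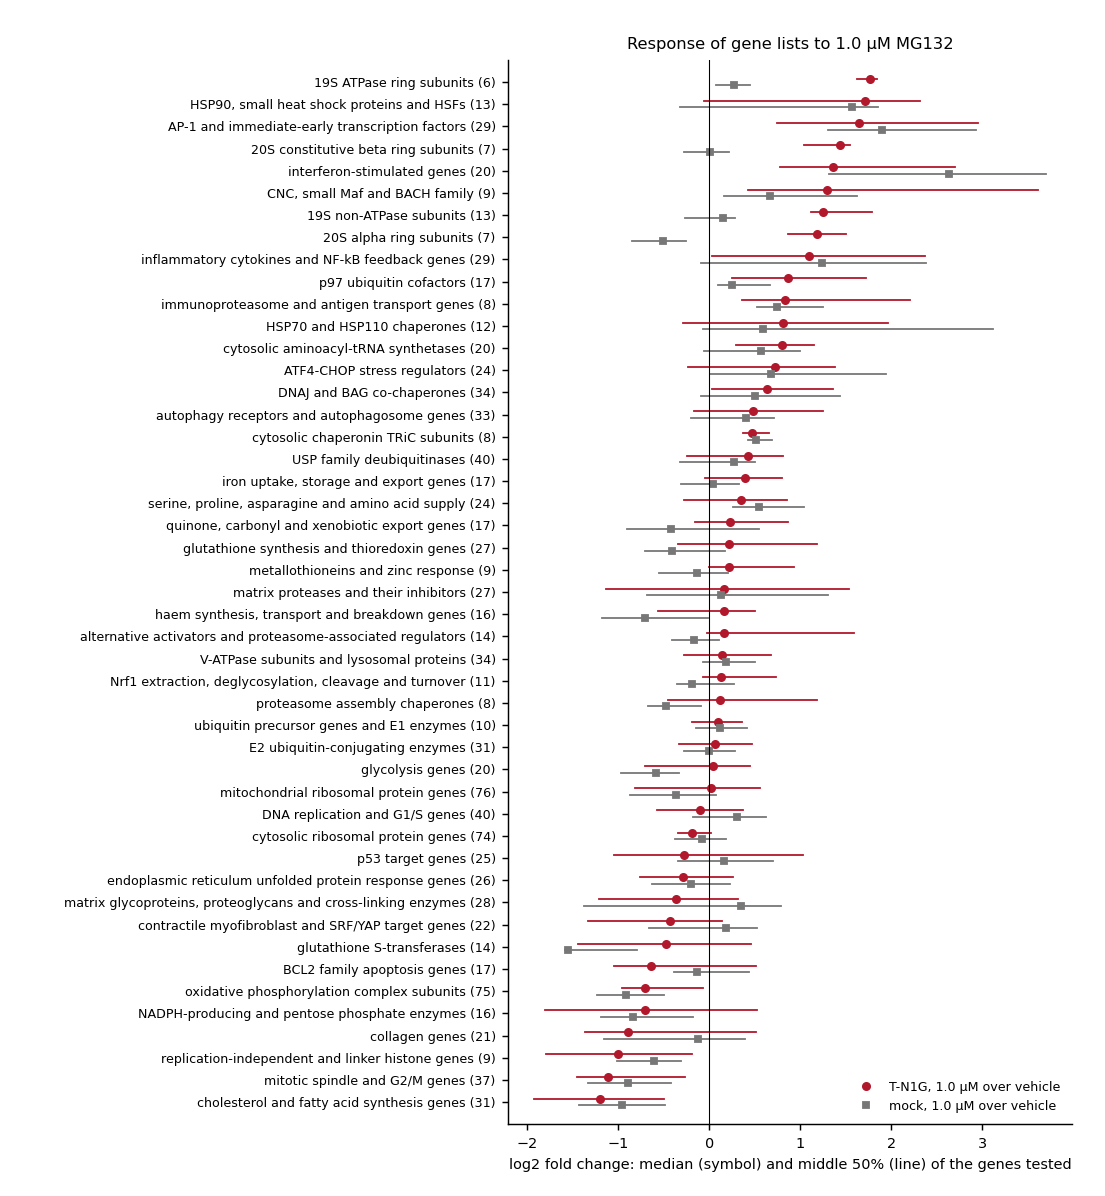
Median log2 change of each gene list (symbol) and middle 50% of its genes (line) at 1.0 µM MG132 over vehicle, in T-N1G cells (red circles) and mock cells (grey squares), with the number of genes tested after each name. The marker lists of cell types are not drawn. The ATPase ring is furthest to the right in T-N1G cells (1.77, and 0.27 in mock cells), and the cholesterol and fatty acid list furthest to the left (-1.20, and -0.96).

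Outside the lists, several of the genes of largest rise started from almost nothing. Igsf11, an adhesion protein of the immunoglobulin family, had 3 fragments over the vehicle libraries and 12.8, 7.84 and 11.6 CPM at 1.0 µM, a count ratio of 232 (95% counting interval 78.9 to 1127). Srpx2, a secreted sushi-repeat protein, also had 3 vehicle fragments and stood at 8.97, 9.25 and 12.6 CPM at 1.0 µM, a count ratio of 224 (95% counting interval 76.2 to 1089). These intervals cover counting error only. Rnf183, a membrane ubiquitin ligase, had 14.2, 9.81 and 21.7 CPM at 1.0 µM, against 0.185, 0.276 and 0 CPM under vehicle, and Acsbg1, an acyl-CoA synthetase, had 27.9, 12.5 and 15.3 CPM at 1.0 µM, against 0.371, 0.138 and 0.0921 CPM under vehicle. P2rx7, an ATP-gated channel, had 64.5, 68.2 and 107 CPM at 1.0 µM, against 3.57, 0.552 and 0.552 CPM under vehicle (log2 5.68, SE 0.48, adjusted p = 6.40e-08). Lama3, a laminin chain, had 10.7, 7.22 and 15.8 CPM at 1.0 µM, against 0.232, 0.414 and 0.184 CPM under vehicle. The rule that picked these 6 genes required that treated and vehicle libraries not overlap, so their separation is no further result.

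S100a4 and Cd248 were among the 12 genes of largest fall with at least 10 CPM and no overlap. S100a4, a calcium-binding protein, had 8.35, 19.2 and 6.07 CPM at 1.0 µM, against 234, 237 and 243 CPM under vehicle (log2 -4.41, SE 0.35, adjusted p = 4.35e-08). Cd248, endosialin, had 6.32, 8.85 and 7.75 CPM at 1.0 µM, against 173, 130.2 and 149 CPM under vehicle (log2 -4.30), and the Wnt antagonist gene Sfrp1 had 3.62, 2.76 and 3.85 CPM at 1.0 µM, against 75.4, 43.5 and 37.2 CPM under vehicle (log2 -3.93). Sdpr, which encodes the caveolar protein cavin-2 (-3.99), the transcription factor gene Atoh8 (-3.87), Tmem119 (-3.73), Sema3f, a guidance factor (-3.50), Gas1, a hedgehog co-receptor (-3.47), and the proteoglycan gene Podn (-3.41) also fell. Oaz1-ps (-4.66) is a pseudogene that shares reads with its parent gene, and with 0.307, 0 and 32.3 CPM at 1.0 µM its value is uncertain.

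Between 0.3 and 1.0 µM the genes that rose most were, besides Hspa1a, Hspa1b, Rsad2, Serpinb2, Egr1, P2rx7 and Mx2, Olr1, the oxidised lipoprotein receptor (log2 3.92), the interferon-inducible Ifi44 (3.85) and AI607873 (3.52), and Arc, an activity-regulated gene (3.45). Olr1 had 75.1, 28.0 and 74.1 CPM at 1.0 µM, against 5.05, 3.69 and 2.91 CPM at 0.3 µM, and Arc had 86.7, 17.1 and 32.8 CPM at 1.0 µM, against 5.15, 3.54 and 3.77 CPM at 0.3 µM. Library 2 was lowest for Olr1, Ifi44, AI607873 and Arc. Ifi44 lost its call when library 3 at 1.0 µM was left out (2.56). On the falling side Msln, mesothelin (-2.15), Hmgn2, a nucleosome-binding protein (-1.82), Tuba1b, an alpha-tubulin (-1.81), Lmnb2, lamin B2 (-1.62), the proton pump gene Atp6v0e2 (-1.63) and Rpl37rt (-2.29), whose reads may be shared with Rpl37, joined Cd248, S100a4, Sfrp1, Sdpr and Ube2c. Msln had 36.1, 46.0 and 44.6 CPM under vehicle, 31.7, 44.4 and 37.3 CPM at 0.3 µM and 10.4, 9.08 and 6.12 CPM at 1.0 µM, and its 0.3 µM and vehicle libraries overlapped. By 2-fold or more, 10.7% of all genes rose in this step and 3.67% fell.

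The response to 1.0 µM differed between T-N1G and mock cells for 5964 genes (45.0%; 7469 with the number as a block within treatment), which responded more in T-N1G cells in 3038 cases and less in 2926 (7.93% and 7.20% of all genes by 2-fold or more). Srpx2 had 0 fragments at 1.0 µM and 1 under vehicle in mock cells, so its fitted difference (adjusted p = 0.0189) is no measure of size, and the call was lost without mock vehicle library 3 (adjusted p = 1). Fam13a, a regulator of small GTPases, had 91.0, 79.4 and 99.5 CPM at 1.0 µM and 5.33, 4.14 and 4.56 CPM under vehicle in T-N1G cells, and 1.13, 1.64 and 1.92 CPM at 1.0 µM and 3.36, 3.01 and 3.42 CPM under vehicle in mock cells (log2 5.31, SE 0.22, adjusted p = 1.78e-11). Fbxo2, an F-box protein that recognises glycoproteins, had 26.1 ± 1.90 CPM at 1.0 µM and 2.40 ± 0.326 CPM under vehicle in T-N1G cells, and 2.00 ± 0.283 and 2.48 ± 0.317 CPM in mock cells (log2 3.75, SE 0.20, adjusted p = 2.56e-10). Map1a, a microtubule protein, rose in T-N1G cells (2.25) and fell in mock cells (-1.49), as did Cpxm1, a secreted carboxypeptidase-like protein (2.54 and -1.16), Pafah2, a phospholipase (2.61 and -0.95), and Zfp418 (1.90 and -1.27). The step from 0.3 to 1.0 µM was 0.68 for Map1a, 0.42 for Zfp418, 0.31 for Pafah2 and -0.26, not past the test, for Fbxo2, while Cpxm1, at 172 ± 17.8 CPM at 1.0 µM and 142 ± 9.77 CPM at 0.3 µM, rose by 0.28. Kif5a, a neuronal kinesin (3.99), and 9330159M07Rik (3.31) rose in T-N1G cells, while their mock changes (0.54 and -0.16) did not pass. Ttc41 rose in both, by 3.88 in T-N1G and 0.64 in mock cells.

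Among genes that responded less than in mock cells, Inhbb, an activin chain, had 4.11, 2.93 and 7.86 CPM at 1.0 µM and 30.1, 24.8 and 19.3 CPM under vehicle in T-N1G cells, and 25.4, 18.8 and 41.2 CPM at 1.0 µM and 21.6, 15.7 and 15.7 CPM under vehicle in mock cells (log2 -3.00, SE 0.46, adjusted p = 9.12e-05). Cldn1, a tight junction protein, had 0.368, 0.789 and 0.921 CPM at 1.0 µM and 3.15, 4.28 and 4.33 CPM under vehicle in T-N1G cells, and 11.5, 40.0 and 33.5 CPM at 1.0 µM and 15.7, 19.3 and 24.1 CPM under vehicle in mock cells. Inhbb and Cldn1 fell in T-N1G cells (-2.31 and -2.47). Tnfrsf22, a decoy death receptor of the mouse (-0.57 and 2.19), and Sema3e (-0.94 and 1.79) fell in T-N1G cells and rose in mock cells, though the call of Tnfrsf22 in T-N1G cells was lost without 1.0 µM library 1 (-0.35), 1.0 µM library 3 (-0.49) or vehicle library 2 (-0.52). Sprr1a, a cornified envelope gene, and 1810011O10Rik rose in both lines, by 1.02 and 2.71 in T-N1G and 3.84 and 5.26 in mock cells, but Sprr1a did not pass in T-N1G cells without 1.0 µM library 1 (0.98), 1.0 µM library 2 (0.76), vehicle library 1 (0.70) or vehicle library 2 (0.99).

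**Figure D5:**
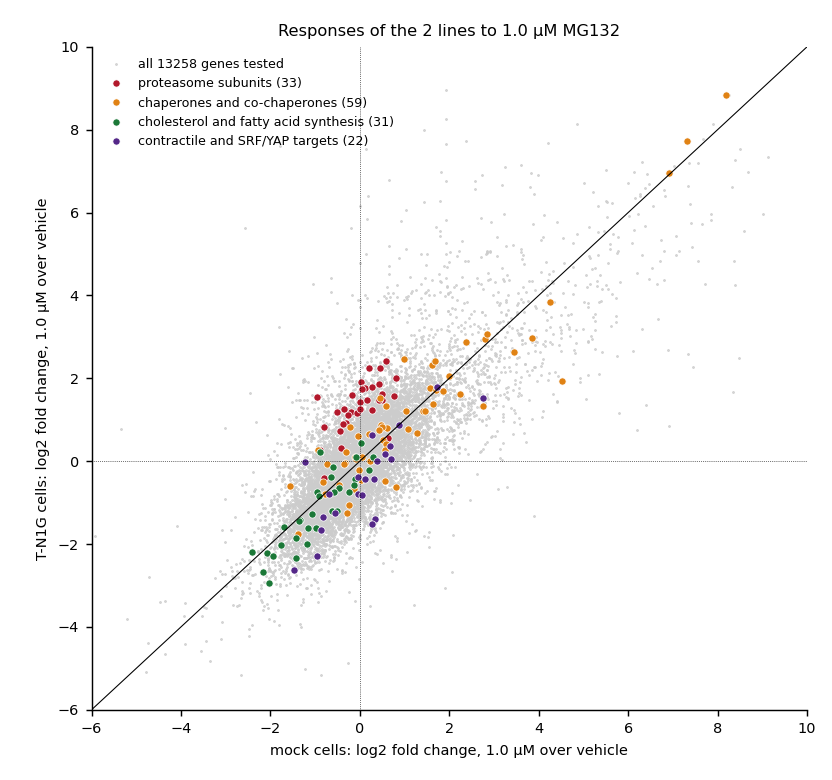
Log2 change at 1.0 µM MG132 against vehicle in T-N1G cells (vertical axis) and mock cells (horizontal axis), with all 13258 genes tested as grey points, 4 groups in colour and a diagonal of equal response. Proteasome subunits lie mostly above the diagonal, and Hspa1a, Hspa1b and Hspb1 lie near it at the upper right.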

How the data were processed

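Poly(A) RNA of 18 libraries was sequenced, and 6 of them, T-N1G cells at 1.0 µM MG132 and under vehicle, carry the main comparison. bcl2fastq 2.16.0.10, TopHat2 2.0.8b, Cuffdiff 2.1.1 and the build mm9 are named per the submitters' processing notes. No source used here gives the annotation or the strand setting of the counting, so overlapping and antisense genes cannot be told apart. Per the file headers, the authors deposited an estimated count of fragments for each gene and library, unscaled, beside the FPKM after Cuffdiff's scaling. Within 1e-06, 98.16% to 98.51% of the counts were whole, and all were rounded. FPKM deposited by the authors served to find genes with a failed estimate (20, Nfe2l1 among them, whose counts were kept). Of 24318 genes, 2 were dropped, Hspa8 among them, because Cuffdiff had not processed them in every library. Some members of the lists are counted but not reported by name here. The condition names were read as N1 for T-N1G and H-MG for 1.0 µM, and Cuffdiff's library numbers as those of the sample titles, links that the files do not state. No library matched another of its group within sampling noise.

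Differences were tested with edgeR 4.0.16 (R 4.3.3), the quasi-likelihood F test with TMM scaling, filterByExpr at its defaults and a robust fit, on all 18 libraries and 6 group means. Its Benjamini-Hochberg adjusted p was called under 0.05 over 13258 genes. The contrasts were 1.0 µM against vehicle and against 0.3 µM in T-N1G cells, and the difference of the 1.0 µM response between T-N1G and mock cells. Changes in mock cells and at 0.3 µM come from the same fit and were not rerun under alternatives. Contrasts share libraries and are not independent. In deviation from group means across genes, same-numbered T-N1G libraries at 1.0 µM and under vehicle did not all correlate above 0.1 (r = 0.0841, 0.123 and -0.0982), while mock libraries at 1.0 µM and under vehicle did (0.169, 0.207 and 0.107), as did T-N1G and mock libraries at 1.0 µM (0.621, 0.659 and 0.775) and under vehicle (0.279, 0.279 and 0.192). T-N1G and mock libraries at 0.3 µM did not all do so (0.136, -0.0627 and 0.0204). The numbers were taken to pair the lines within a treatment from the data at 1.0 µM and under vehicle, not from the labels. The block within treatment also covered 0.3 µM. The scripts were tested on simulated data. Alternatives were DESeq2 1.42.0, other scaling, no filter, a replicate block (over all treatments, or within treatment for the difference between lines), fitting only the groups compared, and leaving out each library.

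The comparison and the 52 lists (1205 entries, 1199 in the tables, 1142 tested) were chosen with earlier results of these data known. Lists share genes, so their counts are not independent. The naming rule took Mafg, Maff, Mafk and Nfe2l1, the 12 largest changes per direction and contrast with at least 10 CPM and no overlap of libraries, and for each list up to 5 called per direction, all members of lists of 14 or fewer and those against the majority. For the difference between lines no overlap rule was applied, and the 10 CPM could come from a mock group. The text gives a selection of these 583 genes. Mmp10 and Mmp13 fall under the list rule. Bases 250 before to 50 after the start of each gene came from RefSeq (GRCm38.p6), which held 888 of 1121 list genes tested.

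Totals of 18164382 to 21196909 fragments per library set the precision. Ratio intervals (95%, exact) cover counting error only, since fragments carry no molecular identifiers.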

Additional observations from a re-analysis of the deposited data

Results flagged for a closer look

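The difference between the responses of T-N1G and mock cells to 1.0 µM MG132, tested as an interaction of line and treatment with edgeR, passed for 5964 of 13258 genes. Genes with at least 10 CPM in the highest of the groups compared were ranked, with no rule on overlap of libraries. The 12 of largest higher response in T-N1G cells were Srpx2 (log2 difference 9.41), Fam13a (5.31), Nfe2l1 (3.78), Fbxo2 (3.75), Map1a (3.75), Cpxm1 (3.69), Pafah2 (3.56), 9330159M07Rik (3.47), Igsf11 (3.46), Kif5a (3.46), Ttc41 (3.23) and Zfp418 (3.17). The fitted values of Srpx2 and Igsf11 rest on 3 fragments under vehicle in T-N1G cells and do not measure size, and the Srpx2 call was lost without mock vehicle library 3. The 12 of largest lower response were Inhbb (-3.00), Cldn1 (-2.99), Map3k7cl (-2.93), Plekha6 (-2.84), Sprr1a (-2.82), Tnfrsf22 (-2.75), Sema3e (-2.73), Sdpr (-2.69), Sfrp1 (-2.59), Nptxr (-2.59), Hspb8 (-2.57) and 1810011O10Rik (-2.56). With the library number as a block within treatment 7469 genes passed. No formal outlier test was run on groups of 3 libraries, and libraries that stood apart are named beside the results they touch.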

How the results depend on the processing

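All 46 alternative counts of genes past the threshold, taken over the contrasts, stayed within 1.5 times of those reported. They were 9185 to 10973 genes for 1.0 µM against vehicle (10124 as reported), 6259 to 8292 for the step between doses (7956) and 5099 to 7469 for the difference between lines (5964). Leaving out a library gave 9765 to 10207, 7135 to 8274 and 5395 to 6341. DESeq2 gave 10046, 7857 and 6077, and no filter 10973, 8292 and 5601. The replicate block over all treatments gave 10305, 8269 and 6388. The block within treatment, run for the difference between lines and chosen after seeing the data, gave 7469, ended 0 calls of named genes, added 69 and moved 24 list counts by more than 1.5 times, of which those printed carry the value. Scaling by library size alone moved the median of all genes to -0.15, -0.083 and -0.068. Of 555 named genes called at 1.0 µM against vehicle, 62 lost the call in some alternative, of 399 between doses 68 and of 302 between lines 41. The dose step of Bcl2l1 ran from -0.298 to 0.177 as libraries were left out, the lowest without T-N1G replicate 3 at 1.0 µM, and was -0.297 without the number 3 libraries of 1.0 µM in both lines, an alternative chosen after seeing the data, under which those of Bach2 (-0.346) and H1fx (-0.353) also turned negative. The cause was not tested. Of the list counts 350 moved by more than 1.5 times and 4434 did not. The treated libraries lay further apart than the vehicle ones, which limits small changes at low counts. Of the genes named as not past the test at 1.0 µM against vehicle, Derl2 (-0.21) passed without library 2 at 1.0 µM, Rps27a (-0.34), H2afj (-0.36) and Slc30a1 (0.29) without library 1, Uba3 (0.19) without library 3, and Psme3 (0.20) without vehicle library 2.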
